A study of Homo sapiens with 9 samples.

Results

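The comparison set 3 xenograft tumour libraries, the count columns numbered T1, T2 and T3, against 3 others, T4, T5 and T6, out of 9 libraries in all. The members were defined by these column numbers, and they and the gene lists were chosen with earlier results of these data known. Each side held 1 library of each of the study's groups, so that T1 was paired with T4, T2 with T5 and T3 with T6. No label says what the column numbers stand for, and any step or animal cohort that followed them cannot be told apart from them. All 9 libraries came from A375 xenografts taken from nude mice, which lack T cells, on day 30, A375 being an established BRAF-mutant line of human melanoma. T1 and T4 carried a doxycycline (Dox)-inducible RNF4 construct and received no Dox. T2 and T5 carried the same construct and received Dox in the drinking water from day 3. T3 and T6 carried the inducible RNF4C159A RING mutant, catalytically inactive by the labels, and received Dox on the same schedule. Each library pooled 2 tumours, no library of a line without a construct received Dox, and the 3 remaining libraries, T12 to T14, entered the fit only to add to the estimate of spread. The series text names tumours of a GFP line as controls, whereas the labels of the control libraries name uninduced RNF4.

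RNF4 is a ubiquitin ligase that recognises proteins carrying SUMO chains, and its transcript (gene at chr4:2462220-2625320, plus strand) was read first because it checks the labels. In CPM, read counts scaled to a common library size and composition, RNF4 stood at 33.4 in T1 and 52.0 in T4, at 380.1 in T2 and 413.0 in T5, and at 47.0 in T3 and 559.2 in T6. In T12, T13 and T14, of the same 3 groups in that order, it stood at 43.2, 454.4 and 63.5. The libraries labelled RING mutant in columns T3 and T14 were thus near the uninduced libraries and T6 was not, and the difference T3 minus T6 was -3.57 on the log2 scale. The other pairs were close to each other, with log2 differences of -0.64 and -0.12. T3 and T6 were therefore not matched for RNF4 transcript, and counts of genes called are also given without T3. T3 also belonged to the pair that shared least with the other pairs, so leaving it out favours calls. Calls and adjusted p-values without T3 thus describe T1 and T2 against T4-T6, and are no support for a difference of T1-T3 as a whole. Leaving out T6, the other library of that pair, gave fewer calls.

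Ribosomal proteins are the protein components of the 40S and 60S subunits that, with ribosomal RNA, build the cytosolic ribosome. Their messages are short, abundant and often begin with a pyrimidine-rich stretch through which their translation is controlled together. Oxidative phosphorylation subunits and mitochondrial ribosomal proteins are likewise encoded by many short nuclear genes, whereas cytoskeletal scaffolds such as filamin are encoded by long messages. T1 and T2 differed from T4 and T5 in each of these classes.

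Sequences of members show where these properties are and are not found. The first lines give the reference promoter around the annotated start of the 5 ribosomal protein genes with the largest mean difference among those with a promoter entry (RefSeq, GRCh38.p14, 60 bases before to 20 after the start, 5′ to 3′ on the gene's strand). Capitals mark any of 4 motifs, the letters CTTTC, the letters CTTTT, the letters CTCTT and the letters CCTTT, which can overlap each other, within 10 bases before to 15 after the start on the gene's strand. RPL27 and RPS29 hold none of the 4 in that window.
RPS3A, chr4:151099568-151099647, plus strand: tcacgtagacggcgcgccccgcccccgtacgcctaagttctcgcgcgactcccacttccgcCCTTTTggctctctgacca
RPL39, chrX:119791611-119791690, minus strand: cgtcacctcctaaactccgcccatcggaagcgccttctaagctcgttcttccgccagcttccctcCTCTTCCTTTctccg
RPL9, chr4:39458903-39458982, minus strand: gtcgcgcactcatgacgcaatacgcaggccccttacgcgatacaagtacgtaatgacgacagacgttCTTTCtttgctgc
RPL27, chr17:42998359-42998438, plus strand: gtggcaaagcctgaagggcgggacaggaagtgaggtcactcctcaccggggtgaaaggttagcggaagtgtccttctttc
RPS29, chr14:49598691-49598770, minus strand: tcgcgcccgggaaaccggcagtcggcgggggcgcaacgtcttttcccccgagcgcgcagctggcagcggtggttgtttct

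At least 1 of the 4 motifs lay in that window, on the gene's strand, in 44 of the 62 ribosomal protein genes with a promoter entry (71.0%), against 1040 of 11175 protein-coding genes tested (9.31%) and 10.1% of all 27305 promoters in the table. On either strand the shares were 72.6%, 14.2% and 17.2%. Among protein-coding genes outside the ribosomal protein list, the 996 with a motif had a median difference of 0.01 for T1 minus T4 and the 10117 without had -0.14. Subtracting the median of genes of like length and GC content left 0.05 and -0.00443. Within the ribosomal protein list, the 44 genes with a motif had a median of 2.48 and the 18 without had 1.98, so both sets stood high in T1.

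The next lines contrast the coding sequence of a gene that stood high in T1 and T2 with the opening of one that stood low, chosen after their values were seen (GENCODE 29 transcripts, GRCh38). Capitals mark runs of at least 4 A or T bases.
RPL39, gene at chrX:119786504-119791643, minus strand, coding sequence: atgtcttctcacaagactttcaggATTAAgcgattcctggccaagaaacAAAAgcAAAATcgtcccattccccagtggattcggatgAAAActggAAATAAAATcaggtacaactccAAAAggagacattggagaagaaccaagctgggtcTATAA
FLNA, gene at chrX:154348524-154374638, minus strand, first 156 coding bases: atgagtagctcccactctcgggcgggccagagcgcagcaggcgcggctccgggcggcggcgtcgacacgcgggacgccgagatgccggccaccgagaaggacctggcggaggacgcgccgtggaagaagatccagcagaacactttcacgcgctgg

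RPL39 encodes a large-subunit protein at the exit tunnel of the ribosome, and its whole coding sequence of 156 bases, stop codon included, has a GC content of 41.7% and 7 such runs. FLNA encodes filamin A, which crosslinks actin filaments. Its whole coding sequence is 7944 bases long with a GC content of 61.8%, and the stretch shown has a higher one of 70.5% and 0 such runs. RPL39 stood at 407.7 CPM in T1 and 31.8 in T4, while FLNA stood at 263.9 in T1 and 918.5 in T4.

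Total counts ran from 16594911 in T3 to 28934692 in T4 over the 6 libraries, and 18618 genes had enough counts to be tested. SOX10, a transcription factor of the neural crest and melanocyte lineage, lay between 39.0 and 80.9 CPM, and MITF, the melanocyte master regulator, between 10.6 and 22.1. The pigment markers PMEL (0.744 to 1.83 CPM) and MLANA (0.738 to 1.78) were near 0 in all 6, and the mesenchymal receptor AXL was at 436.0 to 804.9. These 5 genes were named as a check of the cell line and lie outside the rule for named genes. On the first principal component of log2 CPM, which held 39.3% of the variance, T1 lay at -100.2 and T2 at -61.2, and the other 7 libraries lay between 5.22 and 35.8. T1 and T2 thus stood apart from every other library, T3 included, and no label gives a reason. In bulk tumours fewer cells of a type and less RNA per cell cannot be told apart.

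No gene passed the test of T1-T3 against T4-T6. With edgeR's quasi-likelihood test over the 9 libraries, 0 genes were higher and 0 lower at an adjusted p under 0.05 (0% of those tested in each direction), and the smallest adjusted p was 0.139. Before adjustment, 3157 genes stood higher in T1-T3 at p under 0.05 (17% of those tested) and 1769 lower (9.5%), or 4926 in all. Other tests on the same libraries drew the line elsewhere. DESeq2 called 1661 genes higher (8.92%) and 558 lower (3%), edgeR's likelihood ratio test called 1474 and 322, and limma voom with a weight for each library, which gave T3 the lowest weight (0.145), called 4344 and 3221. Leaving out T3 turned the 0 calls of the quasi-likelihood test into 3771 genes higher (19.3% of 19493 tested) and 2870 lower (14.7%), and leaving out T6 gave 1202 and 326. Leaving out any 1 of T1, T2, T4, T5, T12, T13 or T14 left 0.

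The 3 pairs did not tell the same story. T1 minus T4 had a standard deviation across genes of 1.12 on the log2 scale, T2 minus T5 of 0.80 and T3 minus T6 of 0.55. More than 1 log2 unit separated T1 from T4 upward in 4167 genes and downward in 2253. For T2 against T5 the numbers were 2797 and 834, and for T3 against T6 they were 277 and 1192. Across genes, which are not independent replicates, T1 minus T4 and T2 minus T5 had a Pearson correlation of 0.638, and each had one near 0 with T3 minus T6 (-0.0607 and 0.0164). No library is shared between pairs.

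**Figure D1:**
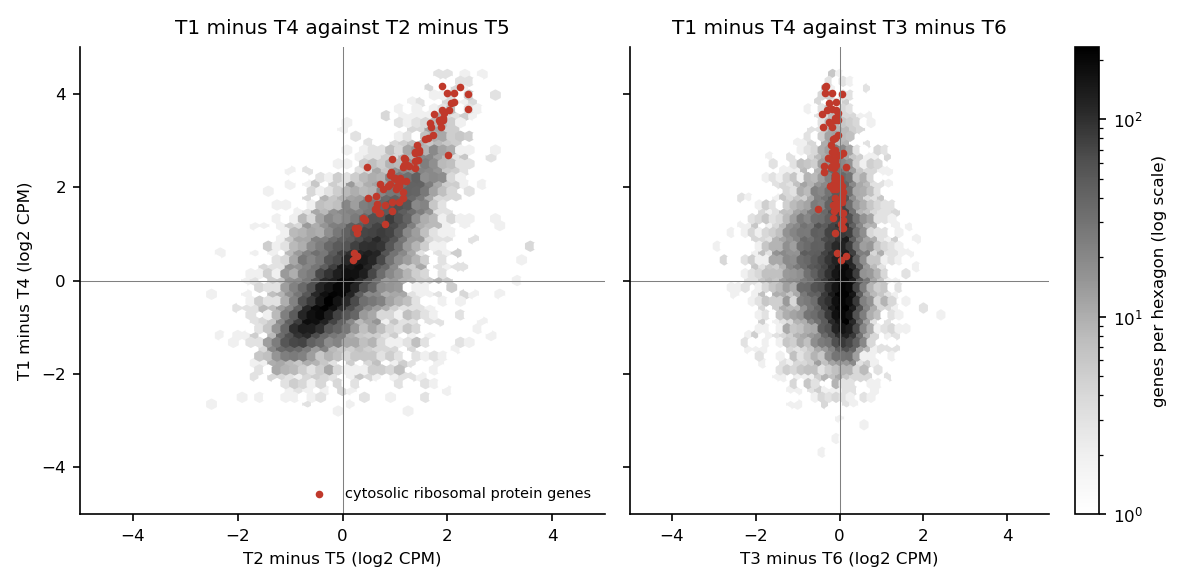
Each hexagon counts genes by their log2 CPM difference T1 minus T4 (vertical axis) and T2 minus T5 or T3 minus T6 (horizontal axes), with the 77 cytosolic ribosomal protein genes tested as red points. The genes spread along a diagonal for T2 minus T5 (correlation 0.638) and along the vertical for T3 minus T6 (-0.0607), and the ribosomal protein genes sit high on the vertical axis in both panels.

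Cytosolic ribosomal protein genes stood far above their partners in T1 and T2. Summed over the list they took 26.1% of all counts in T1 (95% exact binomial interval 26.08 to 26.12), 16.15% in T2 (16.14 to 16.17) and 8.65% in T3 (8.64 to 8.67). In T4, T5 and T6 they took 6.60% (6.59 to 6.61), 8.01% (7.99 to 8.02) and 9.83% (9.82 to 9.84). The intervals cover counting error only. T1 and T2 lay above all of T4-T6, whereas T3 lay inside their range, so the sides overlapped. The share was 3.96 times as high in T1 as in T4 and 2.02 times as high in T2 as in T5, and 0.88 times in T3 against T6. Mean shares of 16.97% ± 8.75 (SD, n = 3) and 8.14% ± 1.62 (SD, n = 3) did not differ beyond their spread (exact sign-flip test over pairs, two-sided p = 0.50, smallest possible 0.25; exact unpaired permutation test, p = 0.20, smallest possible 0.10).

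All 77 ribosomal protein genes tested, of 79 in the list, were higher in T1 than in T4 and all 77 were higher in T2 than in T5, but 20 of 77 were higher in T3 than in T6. The medians were 2.42, 1.16 and -0.11 on the log2 scale, against 0.07, 0.08 and -0.01 over all 18618 genes. Higher in all 3 pairs were 20 of 77, where 20.4% of all genes tested were. T1-T3 lay wholly above T4-T6 in 12 of 77, where 15.6% of all genes did. At an unadjusted p under 0.05, 65 of 77 were higher and 0 lower, where 17% and 9.5% of all genes were, and 0 passed after adjustment. Leaving out T3, whose pair showed no such rise, favours calls in this list. Without T3, 72 of 77 rose (edgeR's quasi-likelihood test, adjusted p under 0.05) and 0 fell, where 19.3% of all genes rose and 14.7% fell.

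RPS3A, an early-assembling component of the small subunit (ENSG00000145425.5, chr4:151099573-151104652, plus strand), had the smallest p of the list. Its level was 3803 CPM in T1, 1570 in T2 and 475.0 in T3, against 239.0 in T4, 300.4 in T5 and 458.0 in T6. T1-T3 all lay above T4-T6, but T3 cleared T6 narrowly. The fitted difference was 2.34 ± 0.68 (SE; edgeR's quasi-likelihood test, adjusted p = 0.139), and 3.12 ± 0.39 without T3 (adjusted p = 0.00161). RPL5, which with RPL11 and 5S RNA forms the particle that restrains MDM2, was at 5642, 3854 and 1262 CPM in T1, T2 and T3 and at 871.0, 952.6 and 1245 in T4, T5 and T6. RPL39 was at 407.7, 201.3 and 55.0 CPM against 31.8, 38.2 and 62.1, so that T3 lay below T6.

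The 2 members with the most reads per kilobase were RPS6 and RPS21. RPS6, the substrate of S6 kinase in the small subunit, was at 30460, 13140 and 5185 CPM in T1, T2 and T3, against 2809, 3665 and 5326 in T4, T5 and T6. RPS21, another small-subunit protein and one of the shortest genes of the list, was at 12010, 3620 and 1336 against 667.8, 966.8 and 1665. For both, T1 and T2 exceeded all of T4-T6 and T3 did not. Reads of ribosomal protein genes may be shared with their many processed pseudogenes, which makes the level of any 1 gene uncertain.

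The ribosomal protein genes did not move by 1 common factor. T1 minus T4 ran from 0.45 for RPL3 to 4.17 for RPS21. RPL3, which lines the peptidyl transferase region, was at 2723, 2817 and 2081 CPM in T1, T2 and T3 and at 1996, 2444 and 2018 in T4, T5 and T6. RPL4, another long member, and RPS2 followed with 0.52 and 0.58 for T1 minus T4. At the other end RPS15A, RPS29 and RPL27 had 4.15, 4.02 and 4.01. These were named after their values were seen. The order of the members was nearly the same in the second pair (Spearman's rho 0.931 between T1 minus T4 and T2 minus T5 over 77 genes) and ran the opposite way, weakly, in the third (-0.476). Within the list the difference T1 minus T4 had a rho of -0.248 with coding length and -0.258 with GC content. The 31 small-subunit genes had a median of 2.79 and the 46 large-subunit genes one of 2.16.

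Transcript length and GC content sorted genes far beyond the ribosome. When the 18163 genes with a GENCODE 29 entry were divided into quintiles by the length of 1 transcript per gene, the median of T1 minus T4 went stepwise from 1.1 in the shortest quintile (up to 1182 bases) through 0.31, -0.03 and -0.27 to -0.48 in the longest (4817 bases or more). For T2 minus T5 it went from 0.59 through 0.20, 0.01 and -0.09 to -0.23. For T3 minus T6 the medians stayed between -0.08 and 0.02. In the shortest quintile 1141 of 3633 genes were higher at an unadjusted p under 0.05 and 36 lower, and in the longest 252 of 3632 were higher and 824 lower. Over all genes tested, 17% were higher and 9.5% lower. The shortest quintile took 22.4% ± 8.38 (SD, n = 3) of counts in T1-T3 and 13.5% ± 2.02 (SD, n = 3) in T4-T6 (exact sign-flip test, two-sided p = 0.50; exact unpaired permutation test, p = 0.20).

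GC content sorted the same pairs. From the quintile with the lowest GC content (41.6% or less) to that with the highest (58.2% or more), the median of T1 minus T4 went from 0.55 to -0.39 and that of T2 minus T5 from 0.51 to -0.32, while T3 minus T6 went from 0.01 to -0.03. By coding length the ends were 0.68 and -0.64 for T1 minus T4 and 0.52 and -0.40 for T2 minus T5.

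**Figure D2:**
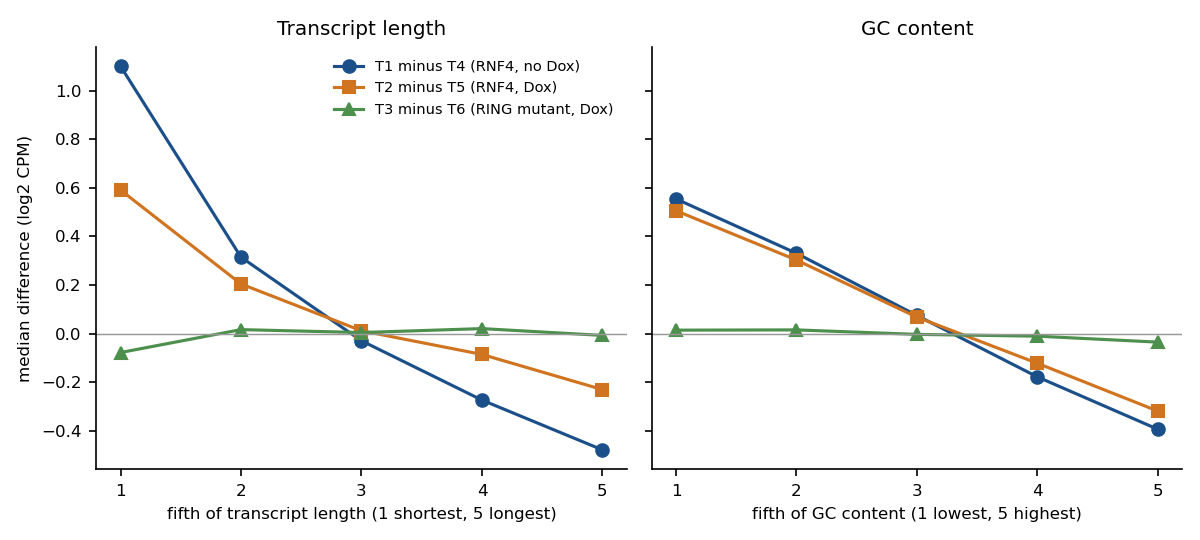
Median log2 CPM difference of each pair (lines) in quintiles of transcript length (left) and GC content (right). For T1 minus T4 and T2 minus T5 the line runs downward from the shortest (1.1 and 0.59) to the longest quintile (-0.48 and -0.23) and from the lowest to the highest GC content, and for T3 minus T6 it lies along 0.

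Both properties sorted genes at once. In protein-coding genes split into 5 by 5 classes, the 258 shortest and GC-poorest had a median T1 minus T4 of 1.80 and the 219 longest and GC-richest one of -1.05. The 771 short but GC-rich genes were at 0.07 and the 948 long but GC-poor genes at -0.07. For T2 minus T5 the same corners were at 1.23, -0.76, -0.03 and 0.09, and for T3 minus T6 all 4 lay between -0.12 and 0.03. Length and GC content together described 39.2% of the variance of T1 minus T4 over 13859 protein-coding genes, 33.6% of that of T2 minus T5 and 0.342% of that of T3 minus T6. Genes within 1 library share its depth and base composition, so these figures describe the libraries and carry no test.

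Taking the median of protein-coding genes of like length (deciles) and GC content (quintiles), ribosomal proteins left out, away from each member separated the lists. With transcript length, the ribosomal protein medians went from 2.42, 1.16 and -0.11 to 1.71, 0.77 and -0.14, and 73 of 77 members kept a positive mean over pairs. With length and GC offsets in the fit, 0 genes passed the test.

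The nuclear genes of oxidative phosphorylation also stood high in T1 and T2. Of 76 tested, 69 were higher in T1 than in T4, 71 in T2 than in T5 and 35 in T3 than in T6, with medians of 1.52, 1.15 and -0.01. At an unadjusted p under 0.05, 58 were higher and 0 lower, against 17% and 9.5% of all genes. Without T3, 62 of 76 rose and 2 fell, against 19.3% and 14.7%. SDHD, the membrane anchor of succinate dehydrogenase, was at 146.0, 140.8 and 93.3 CPM in T1, T2 and T3, against 51.7, 55.6 and 73.1 in T4, T5 and T6, with no overlap between the sides (1.07 ± 0.23; edgeR's quasi-likelihood test, adjusted p = 0.139). ATP5PB, a stator subunit of ATP synthase, was at 816.4, 531.9 and 257.3 against 162.3, 164.2 and 222.6, again without overlap.

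Subunits of ATP synthase parted ways, since ATP5PB stood high in T1 and T2 and ATP5F1B did not. ATP5F1B, the catalytic beta subunit of ATP synthase and a longer message, was at 733.3, 971.6 and 1099 CPM in T1, T2 and T3 and at 1001, 973.1 and 886.1 in T4, T5 and T6, and the sides overlapped. UQCRH, the short hinge protein of complex III, was at 1298, 714.0 and 416.4 against 267.2, 320.3 and 446.2. After length and GC content were taken away the medians of the list were 0.70, 0.41 and -0.03, with 64 of 76 members positive.

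Mitochondrial ribosomal proteins, which translate the mitochondrial genome, had medians of 1.17, 0.84 and 0.10 over 74 genes. T1-T3 lay wholly above T4-T6 in 38 of them and wholly below in 0, where 15.6% and 10.8% of all genes did. Without T3, 53 of 74 rose and 0 fell (19.3% and 14.7% of all genes). MRPL39 was at 95.6, 86.1 and 41.4 CPM in T1, T2 and T3, against 34.3, 28.9 and 33.9 in T4, T5 and T6. MRPS34, a GC-rich member (64.5%), was at 125.5, 127.0 and 144.8 against 126.4, 130.9 and 125.9, with no separation of T1 or T2. After length and GC content were taken away the medians were 0.46, 0.28 and 0.05.

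The 13 protein genes of the mitochondrial genome are transcribed inside the organelle. All 13 were higher in T1 than in T4 and in T2 than in T5, and all 13 lower in T3 than in T6 (medians 1.17, 0.59 and -0.41). Their share of counts was 3.33%, 2.89% and 1.86% in T1, T2 and T3, and 2.20%, 2.31% and 2.63% in T4, T5 and T6, which overlap. MT-ND3, a subunit of complex I, was at 834.9, 617.5 and 360.5 CPM against 342.0, 390.5 and 448.3. Taking length and GC content away turned the medians to -0.23, -0.46 and -0.42, whereas matching on coding length in place of transcript length left 0.68, 0.15 and -0.49. The direction of this list in T1 and T2 thus depended on which length was used.

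The snoRNA host transcripts, whose introns release the small nucleolar RNAs that guide modification of ribosomal RNA, followed the ribosomal proteins. Of 19 tested, 19 were higher in T1 than in T4, 18 in T2 than in T5 and 1 in T3 than in T6 (medians 1.95, 0.98 and -0.36). GAS5 was at 4851, 2210 and 555.2 CPM in T1, T2 and T3, against 338.8, 564.1 and 762.4 in T4, T5 and T6, so that T3 lay below both T5 and T6. SNHG5 was at 1437, 706.8 and 254.4 against 165.1, 215.8 and 326.2. Without T3, 17 of 19 rose and 0 fell (19.3% and 14.7% of all genes).

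The B2M gene, which encodes the light chain of MHC class I, showed the same gradient outside these lists. It was named after its values were seen. Its level was 5391, 2233 and 1261 CPM in T1, T2 and T3, and 595.5, 672.0 and 1412 in T4, T5 and T6, and the sides overlapped through T3 and T6. The class I antigen presentation list as a whole had medians of 0.04, 0.20 and 0.10 over 17 genes.

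Proteasome subunits, which form the barrel and cap that degrade ubiquitylated proteins, had medians of 0.65, 0.51 and 0.24 over 30 genes. PSMD13 was at 426.0, 316.0 and 228.2 CPM in T1, T2 and T3, against 143.3, 143.7 and 174.5 in T4, T5 and T6. With length and GC content taken away, the list's medians lay at -0.10, -0.01 and 0.18. Spliceosome proteins moved from 0.70, 0.49 and 0.13 to -0.18, 0.02 and 0.13 by the same step. Matched on coding length, the proteasome medians were 0.48, 0.23 and 0.19 and the spliceosome medians 0.11, 0.12 and 0.14, so what was left depended on the length used.

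Very long genes stood low in T1 and T2. Of 51 tested, 4 were higher in T1 than in T4, 4 in T2 than in T5 and 35 in T3 than in T6 (medians -0.67, -0.75 and 0.08), and without T3 0 rose and 27 fell, where 19.3% of all genes rose and 14.7% fell. With transcript length and GC content taken away the medians were -0.00492, -0.36 and 0.09, so that little was left in the first pair. FLNA was at 263.9, 372.4 and 757.6 CPM in T1, T2 and T3, against 918.5, 950.8 and 564.2 in T4, T5 and T6. MYH9, the non-muscle myosin heavy chain, was at 164.5, 226.6 and 548.1 against 803.4, 809.0 and 452.8. In both genes T1 and T2 lay below all of T4-T6 and T3 lay inside their range.

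**Figure D3:**
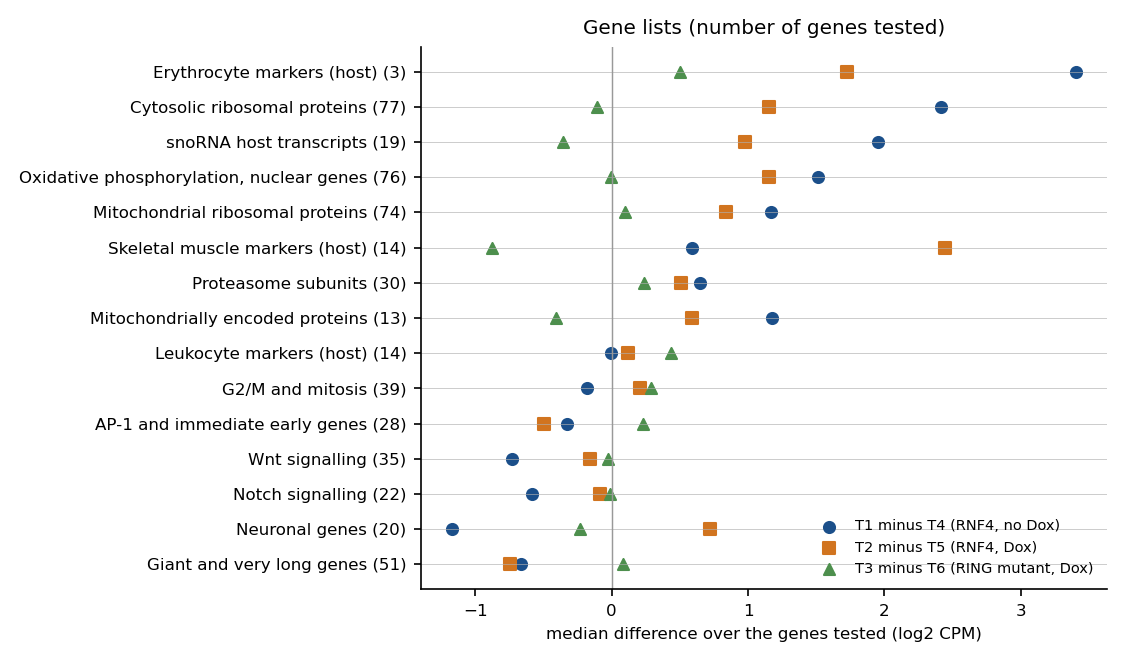
Median log2 CPM difference of each pair for 15 gene lists, with the number of genes tested in brackets. For the ribosomal, oxidative phosphorylation and snoRNA host lists the points of T1 minus T4 and T2 minus T5 lie to the right and those of T3 minus T6 near or left of 0, and for very long genes they lie to the left (-0.67 and -0.75).

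Gene classes other than protein-coding differed as well. Processed pseudogenes named for a ribosomal protein gene had medians of 2.51, 1.47 and 0.04 over 357 genes, close to those of their parent genes, and other processed pseudogenes 0.78, 0.60 and 0.02 over 1193. With reads of 50 bases, counts on a pseudogene cannot be told apart from reads of its parent. Long intergenic RNAs had medians of 0.83, 0.24 and -0.27 over 877 genes and antisense RNAs 0.73, 0.17 and -0.37 over 1044. The 13859 protein-coding genes were at -0.13, 0.00028 and 0.03.

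Wnt and Notch lists stood low in T1, with medians near that of the very long genes (-0.67). Wnt signalling genes had medians of -0.73, -0.16 and -0.03 over 35 genes and Notch signalling genes -0.58, -0.09 and -0.02 over 22. With length and GC content taken away they were at -0.28, 0.21 and -0.03, and at -0.09, 0.12 and 0.02. AXIN2, the feedback target of Wnt signalling, was at 2.05, 2.20 and 1.54 CPM in T1, T2 and T3, against 6.03, 3.05 and 4.02 in T4, T5 and T6, with no overlap. DKK1, a secreted Wnt inhibitor, went the other way without overlap, at 172.9, 183.5 and 162.9 against 97.7, 124.5 and 119.7. NOTCH1 was at 29.9, 38.9 and 52.8 against 64.0, 66.1 and 52.9, so that T3 and T6 were level.

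Among AP-1 and immediate early genes, 1 of 28 was higher and 2 were lower at an unadjusted p under 0.05, both smaller shares than the 17% and 9.5% of all genes. Of the 28, 6 were higher in T1 than in T4, 3 in T2 than in T5 and 19 in T3 than in T6. The medians were -0.33, -0.50 and 0.23, and -0.00825, -0.43 and 0.20 with length and GC content taken away. FOSL2, an AP-1 subunit and the member with the smallest p, was at 61.8, 78.0 and 108.1 CPM in T1, T2 and T3, against 171.0, 196.1 and 132.3 in T4, T5 and T6, and the sides did not overlap (-1.03 ± 0.23; edgeR's quasi-likelihood test, adjusted p = 0.139). Of 39 G2/M and mitosis genes, 15 were higher in all 3 pairs and 0 lower in all 3, where 20.4% and 15.6% of all genes were. Higher in T1 than in T4 were 17 of 39, in T2 than in T5 25 and in T3 than in T6 37. The medians of this list were -0.18, 0.21 and 0.29, so the members named next stood higher in T1 than the list as a whole. CCNB1, the cyclin that activates CDK1 at mitotic entry, was at 410.2, 383.2 and 267.2 against 191.9, 167.5 and 196.1, and HMMR, a spindle-associated protein, at 101.7, 136.3 and 76.7 against 58.9, 55.0 and 52.0. CKS2, a very short gene that binds the same kinase, was at 822.1, 371.0 and 135.7 against 71.5, 75.3 and 151.0, and so followed the ribosomal pattern. After length and GC content were taken away the G2/M medians were -0.31, -0.00484 and 0.20.

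The next genes were chosen for the smallest p among those on the same side in all 3 pairs, T3 and T6 included. Their shared direction was thus set by the choice and is not a result. MMP1, an interstitial collagenase, was at 128.2, 83.0 and 48.3 CPM in T1, T2 and T3, against 14.5, 17.6 and 21.3 in T4, T5 and T6. The sides did not overlap, and the fitted difference was 2.23 ± 0.33 (SE; edgeR's quasi-likelihood test, adjusted p = 0.139; 0.0016 without T3). BMP2, a ligand of the TGF-beta family, was at 70.0, 55.3 and 47.7 against 27.9, 36.5 and 27.1.

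CD96, a receptor better known from T and NK cells, was at 89.7, 66.3 and 59.2 CPM in T1, T2 and T3, against 39.3, 35.0 and 34.2 in T4, T5 and T6. ZFP42, a stem cell zinc-finger protein, was at 30.6, 31.9 and 29.6 against 17.9, 16.9 and 16.9, with the smallest standard error (0.14) of the 10 genes higher with the smallest p, and its 3 pair differences were 0.77, 0.91 and 0.80. DCLK1, TRIML2, UGGT2, STK17B, FAM133A and LRRC17 were the others of the 10, with fitted differences of 0.80 to 1.80 on the log2 scale.

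On the lower side, SIK1, a salt-inducible kinase that restrains CREB coactivators, was at 14.5, 18.9 and 25.1 CPM in T1, T2 and T3, against 50.1, 50.4 and 46.7 in T4, T5 and T6, with a fitted difference of -1.36 ± 0.20 (edgeR's quasi-likelihood test, adjusted p = 0.139; 0.00161 without T3). PER1, a repressor of the circadian clock, was at 31.1, 28.03 and 40.5 against 57.5, 55.1 and 68.1. TET3, which oxidises methylcytosine, was at 27.8, 26.6 and 32.5 against 46.9, 47.3 and 50.0.

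KDM6B, a demethylase of histone H3 lysine 27, was at 36.0, 36.4 and 48.2 CPM against 74.5, 89.4 and 64.6. INHBB, ADAMTS1, MTCL1, SOGA1, TMEM184A and BGN completed the 10, with fitted differences between -1.41 and -0.94. The rule chose both sets for a low p and the same sign in every pair, so that their separation is a description only. Over all genes, 20.4% were higher and 15.6% lower in all 3 pairs.

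Other genes were named for a large difference within 1 pair and also stood on the same side in all 3. CXCL8, the neutrophil chemokine interleukin-8, was at 430.6, 189.5 and 73.2 CPM in T1, T2 and T3, against 21.8, 36.3 and 36.3 in T4, T5 and T6, without overlap. HAS2, which makes hyaluronan, was at 144.2, 166.1 and 233.2 against 94.99, 64.9 and 82.2, and its largest difference (1.503) was in the third pair. PTPRD, a receptor tyrosine phosphatase, was at 6.50, 7.85 and 5.93 against 16.3, 34.1 and 20.1, with a difference of -1.74 in the third pair.

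**Figure D4:**
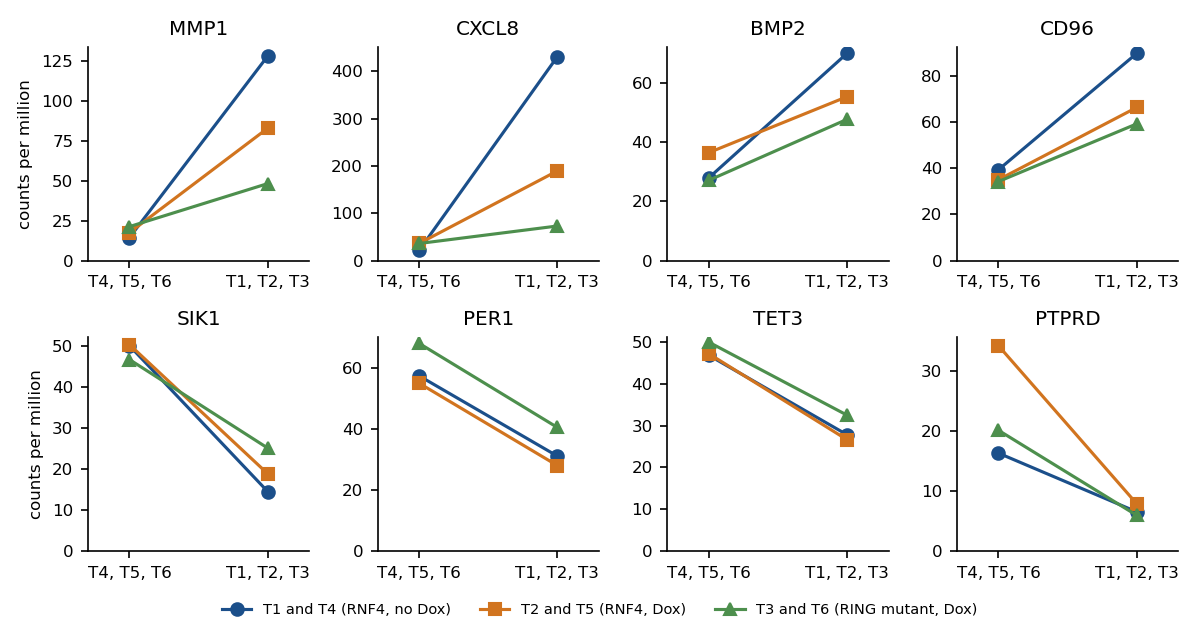
CPM of 8 genes in T4, T5 and T6 (left of each panel) and T1, T2 and T3 (right), with a line for each pair. For MMP1, CXCL8, BMP2 and CD96 all 3 lines run upward and for SIK1, PER1, TET3 and PTPRD all 3 run downward, with the steepest line of MMP1 and CXCL8 in T4 and T1.

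Transcripts counted on markers of host cells differed between the same libraries. Reads were counted on the human genome, so mouse reads that align there cannot be told apart from human ones. HBB, the beta-globin of red cells, was at 42.0, 58.8 and 27.6 CPM in T1, T2 and T3, against 3.88, 13.7 and 12.2 in T4, T5 and T6, without overlap. HBA1 was at 0 in T1-T3 and at no more than 0.0448 CPM in T4-T6, and HBA2 was at 0 in all 6. The summed erythrocyte list of 7 genes ran from 34.8 to 86.3 CPM in T1-T3 and from 5.97 to 22.3 in T4-T6. Their part in the other differences was not tested.

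LYZ, lysozyme, was at 47.8, 45.6 and 23.2 CPM in T1, T2 and T3, against 7.61, 10.1 and 13.1 in T4, T5 and T6, without overlap. The summed leukocyte list of 16 genes ran from 125.1 to 158.5 CPM in T1-T3 and from 109.0 to 118.3 in T4-T6, but without LYZ the sums were 110.7, 79.5 and 119.7 against 106.6, 99.0 and 105.1, which overlap. Most of the sum without LYZ was CD74, at 82.9, 51.9 and 87.0 CPM against 77.1, 70.8 and 80.9. Of the 14 leukocyte members tested, 7 were higher in T1 than in T4 and 8 in T2 than in T5. T1-T3 lay wholly above T4-T6 in 5 of the 14 and wholly below in 0, where 15.6% and 10.8% of all genes did. Among these 5 were TYROBP, at 3.83, 2.25 and 1.13 CPM against 0.67, 0.90 and 0.70, and FCER1G, at 3.28, 1.91 and 2.43 against 1.155, 1.613 and 1.487. PTPRC (1.3 to 2.07 CPM) and CD68 (0 to 0.175) were low in all 6. The summed muscle list of 16 genes was at 60.9, 149.3 and 31.5 CPM against 38.5, 22.2 and 57.2, with its highest value in T2. CKM, muscle creatine kinase, was at 5.20, 18.4 and 0.889 against 0.321, 0.134 and 1.57. Sums of the stromal lists were lower in T1 than in T4 and in T2 than in T5, but their members were mixed. Of 11 fibroblast and matrix genes, 3 were higher in T1 than in T4 and 5 in T2 than in T5. Of 9 endothelial genes tested, 1 and 2 were. The summed fibroblast and matrix list of 11 genes was at 1085, 1325 and 1072 CPM in T1, T2 and T3, against 2415, 1522 and 905.2 in T4, T5 and T6. Its member COL1A1, a chain of type I collagen, was at 235.1, 411.2 and 401.6 against 1093, 660.4 and 337.8. Another member, COL3A1, was at 480.4, 491.8 and 126.7 against 432.1, 248.4 and 142.7, with T1 and T2 above all of T4-T6. Endothelial markers had medians of -1.23, -0.50 and 0.16 over 9 genes, with CDH5, the endothelial cadherin, at 2.19, 1.20 and 3.38 against 9.69, 5.60 and 3.11. HBA1, HBA2, PTPRC, CD68, CSF1R, LAPTM5, COL1A1, COL3A1 and CDH5 were named after their values were seen. With a host marker score as a covariate the test again called 0 genes, and 3788 had an unadjusted p under 0.05. The score averaged the muscle, endothelial, fibroblast, leukocyte and keratinocyte lists, which did not move together, and left out the erythrocyte list. Since the test called 0 genes without the score too, this count cannot show what part host cells had.

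Pairs also differed in genes that belonged to no class. The X-linked genes IRS4, AMOT, GPC3 and RADX were among the largest differences of T1 minus T4 or T2 minus T5 at a mean of 20 CPM or more. IRS4, an insulin receptor substrate, was at 4.11 CPM in T1 and 53.9 in T4, at 21.3 in T2 and 11.4 in T5, and at 0 in T3 and 0.525 in T6. AMOT, a regulator of the Hippo pathway, was at 14.8 and 103.3, at 48.3 and 21.8, and at 1.13 and 4.199. In these genes the first pair and the second went opposite ways, and both RING mutant libraries were low.

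The third pair had its own largest differences. Besides RNF4 they were, on the higher side, HAS2, FEZ1 and MMP1, and on the lower side, where 1 more gene is not described here, NETO1, a kainate receptor partner, at 10.8 CPM in T3 and 36.3 in T6. Setting T12-T14 in place of T4-T6 gave, as medians of the mean over pairs, 1.32 in place of 1.08 for the ribosomal protein genes and 0.40 in place of 0.74 for the shortest minus the longest quintile of transcripts. The ribosomal median therefore stood as high against T12-T14 as against T4-T6.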

How the data were processed

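RNA of pooled xenograft tumours was made into poly(A)-selected, strand-marking libraries and sequenced as single 50-base reads, per the labels' protocols. The submitters' processing notes name TopHat2 2.0.13, HTSeq 0.6.0, DESeq2 1.10.1 and GRCh38. The deposited table holds raw counts per gene by the authors, with 57820 identifiers. Its 9 columns of normalised values were not used. GENCODE 29 held 52338 of them, and 1411 of 1462 list symbols matched one. Totals ran from 16416426 to 28934692 counts per library, so shares of counts have narrow intervals and replicate spread limits precision.

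Genes were kept by edgeR's expression filter over the 3 groups and scaled by TMM factors, which ran from 0.7262 in T1 to 1.084. The main test was edgeR 4.0.16's quasi-likelihood test over 9 libraries with terms for group and column run, with Benjamini-Hochberg adjustment and a threshold of 0.05. Pair differences are log2 CPM with a prior count of 2. Length and GC content come from the basic GENCODE transcript with the longest coding sequence, in quintiles and deciles. Shares were tested by exact sign-flip and unpaired permutation tests. DESeq2 1.42.0, limma 3.58.1, other scalings and filters, and leaving out libraries were alternatives. The labels name no separate cultures, so p-values measure only the spread between these libraries. Members and lists were chosen with earlier results of these data known.

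Named genes were RNF4, the 10 per direction with the smallest p among genes of the same sign in all pairs and a mean of at least 1 CPM, for each described list 3 members by p and 2 by reads per kilobase, and for each pair the 3 largest differences per direction at a mean of 20 CPM or more, and 1 of the latter is not reported here. Genes named beyond the rule are marked so where they appear. The test was checked on simulated counts with known changes. It recovered 18 of 50 genes changed 2-fold, 41 of 50 changed 4-fold and 48 of 50 changed 8-fold, with 8 false calls. The simulated counts held no group effect and no pair that went against the others, so they do not show how the test handles such pairs.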

Additional observations from a re-analysis of the deposited data

Results flagged for a closer look

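Lists were flagged where T1 minus T4 and T2 minus T5 had medians on opposite sides of 0, or where both lay opposite to T3 minus T6. Each median had to lie more than 0.3 from 0 on the log2 scale. This held in 5 gene lists, and the difference between pairs was not tested. The G1/S and DNA replication genes, at -0.598, 0.1937 and 0.3837, fell outside this rule. The long nuclear-retained and antisense RNAs had medians of 1.292 for T1 minus T4, 0.7538 for T2 minus T5 and -0.3996 for T3 minus T6. The mitochondrially encoded protein genes had 1.174, 0.5884 and -0.4112, and the snoRNA host transcripts had 1.953, 0.9785 and -0.3584. The skeletal muscle markers had 0.5914, 2.442 and -0.8761. The neuronal genes were lower in T1 than in T4 (-1.168) and higher in T2 than in T5 (0.7215).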

How the results depend on the processing

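The 0 calls of the quasi-likelihood test stayed at 0 with RLE factors, with TMM factors computed without ribosomal protein and mitochondrially encoded genes, at 1 CPM in 3 libraries, with T1 to T6 only, without the group term in 6 or in 9 libraries, with length and GC offsets and with the host marker covariate. Without a low-count filter 2833 genes passed (1838 higher, 995 lower), with DESeq2 2219 (1661 and 558), with edgeR's likelihood ratio test 1796 (1474 and 322) and with limma voom 7565 (4344 and 3221). Leaving out 1 library or pair gave 0 to 6641 calls, with 0 to 3771 higher and 0 to 2870 lower. The counts above 0 came without T3, without T6 (1528) and without both (5889). The causes of these shifts were not tested.

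With length and GC offsets, which are built to remove it, the difference between the quintiles of lowest and highest GC content went from 0.60 to 0.0215. The same offsets turned the sign of MT-ND3 (-0.46), MT-ND6 (-0.35), MT-CO3 (-0.0584), MT-ND4 (-0.14), PKD1 (0.27), NOTCH1 (0.16), NOTCH2 (0.15), UBE2C (-0.31) and MRPS34 (-0.00737). MRPS34, near 0 throughout, was also at -0.0306 without a filter, at -0.0322 with T1 to T6 only, at -0.0238 when these also lacked the group term and at -0.0399 with limma voom. CTNNB1 was at 0.00147 at 1 CPM in 3 libraries. Over the fits that left out libraries, MRPS34 ran from -0.0357 to 0.12, ATP5F1B from -0.21 to 0.16, CTNNB1 from -0.22 to 0.24, RBPJ from -0.15 to 0.0824, CA2 from -0.63 to 2.32, ALAS2 from -0.10 to 0.77 and CD74 from -0.20 to 0.12, and each changed sign.

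The ribosomal protein median of 1.08 ran from 0.52 to 1.68 without 1 pair and was 0.84 with offsets. No paired analysis was possible because the count columns carry none of the replicate numbers of the titles, as far as pairing by those numbers goes. The pairs used throughout are by group. With 3 libraries a side, the spread between pairs was far wider than the counting intervals of the shares.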

Other observations

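Clock genes, read as a list after PER1 had been seen, were lower in all 3 pairs in 8 of 17 members and higher in all 3 in 3, where 15.6% and 20.4% of all genes tested were. PER2, PER3, CRY2, DBP, TEF and CLOCK were, like PER1, lower in T1, T2 and T3 than in T4, T5 and T6 in every pair, and CRY1, RORA and BMAL1 were higher in every pair. TEF was at 3.56, 4.59 and 9.07 CPM against 11.6, 7.71 and 9.80, and BMAL1 at 12.7, 9.42 and 9.72 against 9.76, 8.11 and 7.04. The pair differences of BMAL1 were 0.37, 0.21 and 0.46. The members were chosen with these values known, so no test was made.

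Among genes of the cAMP response, listed in the same way, SIK1, CRTC1, CRTC2, PDE4D and DUSP1 of 14 were lower in all 3 pairs and PDE4B was higher in all 3 (0.41, 0.00793 and 0.0131), where 15.6% and 20.4% of all genes were. CREM was at 116.6, 46.7 and 37.4 CPM in T1, T2 and T3, against 24.1, 19.7 and 37.4 in T4, T5 and T6, and so followed the ribosomal pattern. FOSB was at 5.68, 3.35 and 31.35 against 8.63, 9.00 and 7.92, high in T3 alone, and NR4A3 was at 1.3, 1.20 and 5.81 against 2.34, 2.33 and 1.01.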
